A study of Mus musculus with 29 samples.

Results

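The expression and chromatin state of 10 genes of the Wnt pathway and of the cortical hem were followed in the embryonic mouse cortex. The genes were taken by name, with earlier results of these data known. They were 6 Wnt ligands (Wnt2b, Wnt3a, Wnt5a, Wnt7a, Wnt7b and Wnt8b), 3 R-spondins (Rspo1, Rspo2 and Rspo3) and the transcription factor Lmx1a, out of 36831 genes listed in both RNA experiments. Wnt ligands are secreted glycoproteins that bind Frizzled receptors on a neighbouring cell. Canonical signalling keeps β-catenin from being degraded, so that it enters the nucleus and acts with TCF and LEF factors on target genes, whereas R-spondins bind LGR receptors and raise the number of Frizzled receptors on the cell surface. The cortical hem is a strip at the medial edge of the pallium that releases Wnt and BMP proteins and is needed for the hippocampus to form.

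RNA was sequenced from cortex of C57BL/6J embryos at E17.5. The dcKO embryos carried floxed alleles of Baf155 (gene Smarcc1) and Baf170 (gene Smarcc2), the scaffold subunits of the BAF chromatin remodelling complex, and Cre recombinase under the human GFAP promoter (hGFAP-Cre). This promoter is active first in the medial pallium and later in the dorsal and lateral pallium, so a sample of whole cortex holds cells with and without the deletion. Untreated samples comprised 4 libraries with the letter C, which by the study's methods are littermates heterozygous for both floxed alleles with Cre, and 3 with the letter M, the mutants. The genotype field of the labels reads dcKO for both letters, and they were told apart by their titles. Treated samples comprised 4 wild-type (WT) embryos given vehicle, 4 dcKO embryos given vehicle and 4 dcKO embryos given a Wnt inhibitor. By the study's methods this was ICG-001, which blocks the use of the coactivator CBP by β-catenin, and was given to the pregnant mice with DMSO as vehicle. There was no WT group with inhibitor. H3K27me3, the histone mark laid down by Polycomb repressive complex 2, was mapped in 4 C and 4 K libraries, K standing for the mutants. Nothing in the labels says that replicates came from separate embryos, and p-values therefore measure only the spread between these samples.

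RNA libraries held 11946658 to 28391046 counted reads. Smarcc1 checked the labels: 7 of the 11 libraries labelled M or dcKO had 49.8 to 65.1% of the control mean, whereas M replicate 2 had 95.4%, dcKO vehicle replicate 2 had 91.1%, and Wnt inhibitor replicates 1 and 2 had 80.5 and 94.6%. Smarcc2 in those 7 was at 56.8 to 60.0%, except for 80.1% in Wnt inhibitor replicate 4. In the other 4 libraries Smarcc2 was at 88.1 to 98.3%. These 4 libraries are spoken of as labelled, and the test results of the members that led each comparison are given with and without them. The limit, 80% of control Smarcc1, was chosen after these values were seen. Libraries with the same number in the untreated and vehicle experiments deviated from their group means together over all genes (r of 0.185 to 0.925 in 7 pairs, against a median of -0.26 for pairs with different numbers), so the 2 experiments may not be independent. Cortical markers summed to 1343 to 3068 CPM (the reads of a gene as a share of the scaled library size) in every library. Choroid plexus markers summed to 865, 172, 500 and 15.9 CPM in Wnt inhibitor replicates 1 to 4, to 142 CPM in C replicate 4 and to 138 CPM in WT vehicle replicate 4, and to 8.81 to 23.5 CPM elsewhere.

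Promoter sequences were looked up in RefSeq (GRCm38.p6, 250 bases before to 50 after the start of transcription), where 6 of the 10 genes had an entry. Wnt2b, Wnt7a, Wnt8b and Lmx1a are printed here, 5′ to 3′ on the coding strand. Their base composition is unlike. Each had an H3K27me3 peak within 2000 bp of the gene start in the GENCODE annotation, though Wnt7a in only 3 of the 8 libraries. At Wnt2b and Lmx1a the RefSeq windows have a start that clearly differs from the GENCODE one. Capitals mark CG dinucleotides. They lie at chr3:104961660-104961959 on the minus strand (Wnt2b), chr6:91411304-91411603 on the minus strand (Wnt7a), chr19:44493222-44493521 on the plus strand (Wnt8b) and chr1:167689308-167689607 on the plus strand (Lmx1a).
Wnt2b: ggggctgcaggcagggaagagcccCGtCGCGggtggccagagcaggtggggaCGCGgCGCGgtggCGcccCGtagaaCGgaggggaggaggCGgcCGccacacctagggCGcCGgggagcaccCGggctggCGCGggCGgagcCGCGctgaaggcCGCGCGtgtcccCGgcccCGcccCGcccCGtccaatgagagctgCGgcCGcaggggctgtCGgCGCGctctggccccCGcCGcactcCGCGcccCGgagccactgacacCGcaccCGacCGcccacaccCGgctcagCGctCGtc
Wnt7a: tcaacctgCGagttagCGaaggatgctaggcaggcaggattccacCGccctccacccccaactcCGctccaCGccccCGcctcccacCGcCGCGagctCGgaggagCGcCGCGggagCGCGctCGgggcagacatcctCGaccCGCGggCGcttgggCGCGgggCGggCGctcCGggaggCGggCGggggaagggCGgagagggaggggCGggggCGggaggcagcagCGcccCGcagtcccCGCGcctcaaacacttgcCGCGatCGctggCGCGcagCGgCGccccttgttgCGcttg
Wnt8b: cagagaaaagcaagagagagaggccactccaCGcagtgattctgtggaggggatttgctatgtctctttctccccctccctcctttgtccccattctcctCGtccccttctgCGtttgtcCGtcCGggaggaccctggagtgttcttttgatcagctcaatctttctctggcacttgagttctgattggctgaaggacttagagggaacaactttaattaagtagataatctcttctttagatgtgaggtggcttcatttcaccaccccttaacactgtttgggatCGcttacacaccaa
Lmx1a: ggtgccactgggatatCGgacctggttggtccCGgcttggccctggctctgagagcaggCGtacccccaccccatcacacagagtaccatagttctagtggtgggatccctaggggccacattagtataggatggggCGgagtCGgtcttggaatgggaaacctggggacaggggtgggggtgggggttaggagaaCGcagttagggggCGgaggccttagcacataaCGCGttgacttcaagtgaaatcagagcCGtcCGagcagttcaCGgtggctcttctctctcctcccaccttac

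The promoters of Wnt2b and Wnt7a are dense in CG, the pattern of a CpG island: they hold 43 and 42 such dinucleotides, where the median of 32851 promoters was 7. Wnt3a held 45 and Rspo1 29. Lmx1a had 12 and Wnt8b 6, so the group spans both kinds of promoter. The letters CTTTGA or CTTTGT, the core of sites bound by TCF and LEF factors, were searched on both strands. They were present in 1 of the 6 promoters, that of Wnt8b (CTTTGT starting at base 83 of the window), and in 31.2% of all promoters. A match of these letters is not a binding site by itself. Wnt5a, Wnt7b, Rspo2 and Rspo3 had no entry.

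In control cortex the 10 genes covered a wide range of levels. Divided by exon length, the level in untreated C libraries ran from 26.6 ± 6.64 CPM per kb (SD, n = 4) for Wnt7b down to 0.245 ± 0.144 for Wnt3a, a ratio of 108.3. Wnt7b and Wnt7a (13.1 ± 0.965), ligands made by cortical neurons and progenitors, stood at the top. Rspo3 (6.79 ± 0.581), Wnt5a (4.04 ± 0.371) and Rspo2 (2.64 ± 0.334) followed, and the libraries of each of these 5 genes did not overlap those of the next gene in the order. Wnt2b (1.05 ± 0.171), Rspo1 (0.877 ± 0.385), Wnt8b (0.680 ± 0.403), Lmx1a (0.496 ± 0.19) and Wnt3a formed the lower end, in which each gene overlapped its neighbour. Wnt2b, Wnt3a, Wnt8b and Lmx1a are known for their expression in the hem. WT vehicle libraries gave the same first 5 places (Wnt7b at 32.9 ± 3.29 and Wnt3a at 0.161 ± 0.0716 CPM per kb), with Rspo1 and Wnt2b exchanged at 0.932 ± 0.349 and 0.930 ± 0.199. Wnt3a rested on 3 to 28 reads per library, and its differences between groups could be estimated only roughly.

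**Figure D1:**
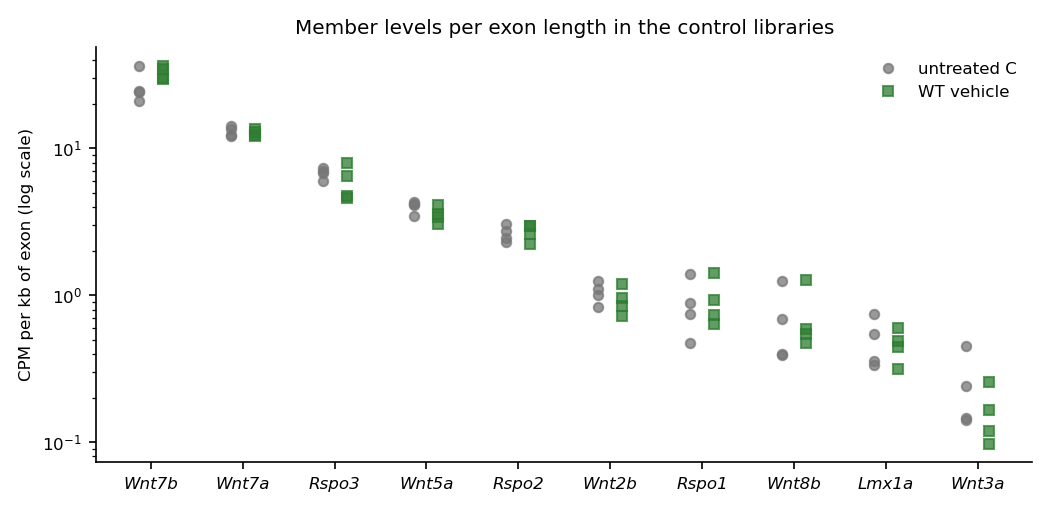
Level of each gene in control cortex, in CPM per kb of exon on a log axis, with 4 untreated C libraries as circles and 4 WT vehicle libraries as squares. Wnt7b is the highest in both groups (26.6 and 32.9 on average) and Wnt3a the lowest (0.245 and 0.161), and the 5 genes at the lower end lie close together.

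The first comparison asks how the ligands and hem genes change when both BAF subunits are lost. Wnt2b and Rspo2 were higher, and every library labelled M or dcKO vehicle lay above all its controls for these 2 genes. The share of all genes whose groups separate in this way was not determined. Groups without overlap, here and for later genes, are therefore description only. Wnt7a was higher and Rspo3 lower in the libraries with reduced Smarcc1. These 4 genes passed the test in both experiments once the libraries with control-level Smarcc1 were left out. In the vehicle experiment this also took 2 inhibitor libraries from the shared fit. With dcKO vehicle replicate 2 alone left out, Wnt2b and Wnt7a passed there, and Rspo2 (adjusted p = 0.0511) and Rspo3 (adjusted p = 0.0547) did not. With all libraries included none of the 10 passed in either experiment, where 0.00634% of 15770 genes did for M against C and 0.00611% of 16372 for dcKO vehicle against WT vehicle. At an unadjusted p under 0.05 the counts were 2 members for M against C and 4 for dcKO vehicle against WT vehicle. Over all genes tested these counts were 2531 of 15770 and 1549 of 16372. Without those libraries 4 of 10 passed in each, against a background of 12.4% of genes in the untreated and 5.82% in the vehicle experiment. All adjusted p-values for RNA came from the quasi-likelihood test of edgeR and were adjusted over all genes tested by the method of Benjamini and Hochberg. DESeq2 with all libraries called 2 members (Wnt2b and Rspo2) for M against C and 1 (Wnt2b) in the vehicle experiment. It called 555 of 15770 and 120 of 16372 genes in all. In whole tissue, fewer cells of a type and less RNA per cell cannot be told apart.

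Wnt2b, a canonical ligand of the hem (chr3:104945272-104961921), was at 4.2, 5.23, 3.52 and 4.61 CPM in C replicates 1 to 4. In M replicates 2 to 4 it was at 5.54, 12.3 and 12.9 CPM. M replicate 2 was just above the highest control, and the other 2 libraries were far above it. WT vehicle libraries had 3.53, 5.01, 3.06 and 4.03 CPM. The dcKO vehicle libraries had 11.6, 5.26, 11.1 and 11.5 CPM, again with the library labelled replicate 2 next to the controls. The log2 fold change was 1.25 (SE 0.268, adjusted p = 0.125) for M against C and 1.32 (SE 0.301, adjusted p = 0.221) for dcKO vehicle against WT vehicle. Without the libraries with control-level Smarcc1 it was 1.52 (SE 0.152, adjusted p = 0.000162) and 1.53 (SE 0.180, adjusted p = 0.000806), a fold of 2.88 and 2.89.

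Rspo2, a secreted amplifier of Wnt signals (chr15:43020794-43170826), was at 13.9, 12.5, 11.8 and 15.7 CPM in C libraries and at 18.97, 31.7 and 26.6 CPM in M libraries. WT vehicle libraries had 11.4, 15.1, 13.4 and 15.2 CPM, and dcKO vehicle libraries 25.4, 19.1, 30.2 and 30.9 CPM. Here the libraries labelled replicate 2 of M and dcKO vehicle lay between the controls and the rest. The log2 fold change was 0.95 (SE 0.166, adjusted p = 0.0929) in untreated and 0.94 (SE 0.265, adjusted p = 0.281) in vehicle samples. Without the libraries with control-level Smarcc1 it rose to 1.11 (SE 0.121, adjusted p = 0.000279) and 1.06 (SE 0.185, adjusted p = 0.00752), a fold of 2.16 and 2.09.

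Rspo3, the R-spondin with the highest level in control cortex (chr10:29452416-29535867), moved the other way. Its values were 21.1, 21.5, 22.7 and 18.5 CPM in C and 27.6, 12.2 and 11.9 CPM in M. The library labelled M replicate 2 was above every control, and the other 2 were below every control. In the vehicle experiment the WT libraries had 14.2, 19.9, 24.5 and 14.6 CPM and the dcKO libraries 10.1, 21.6, 11.2 and 11.6 CPM, where replicate 2 lay within the WT range and the remaining 3 below it. With all libraries the log2 fold change was -0.32 and -0.42 (adjusted p = 0.628 in vehicle samples). Without the libraries with control-level Smarcc1 Rspo3 fell by 0.80 on the log2 scale in untreated samples (SE 0.106, adjusted p = 0.000927) and by 0.73 in vehicle samples (SE 0.189, adjusted p = 0.0498), the latter close to the threshold. Within one family, then, Rspo2 and Rspo3 changed in opposite directions in these libraries.

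Wnt7a (chr6:91363981-91411363), a ligand that acts on blood vessels of the brain and on neural progenitors, was at 38.7, 39.2, 45.0 and 43.2 CPM in C and at 36.0, 54.2 and 54.8 CPM in M. The vehicle libraries showed the same arrangement, with 41.2, 38.5, 39.0 and 42.8 CPM in WT and 55.7, 36.3, 51.5 and 58.2 CPM in dcKO. In both experiments the library labelled replicate 2 was the lowest of all, controls included. The log2 fold change of 0.23 and 0.32 (adjusted p = 0.466 in vehicle samples) became 0.39 (SE 0.0794, adjusted p = 0.0103) and 0.45 (SE 0.0919, adjusted p = 0.0173) without these libraries, the smallest of the changes that passed.

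**Figure D2:**
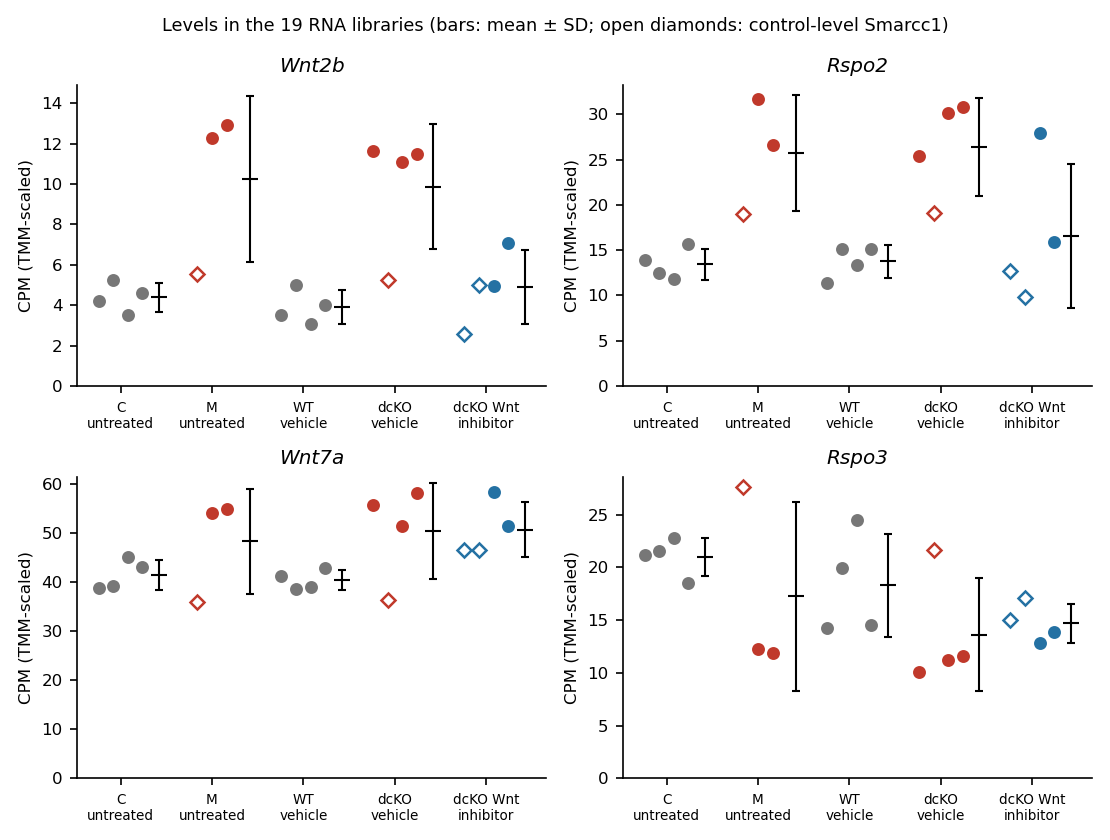
CPM of Wnt2b, Rspo2, Wnt7a and Rspo3 in each RNA library of the 5 groups, with the mean and SD as bars. Open diamonds are libraries labelled M or dcKO with Smarcc1 above 80% of the control mean, and those of M and dcKO vehicle lie near the controls for Wnt2b (5.26 and 5.54 CPM) and above the other mutant libraries for Rspo3 (21.6 and 27.6 CPM).

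The other 6 genes did not pass the test in either experiment, with or without those libraries. Wnt7b (chr15:85535437-85582473), a close relative of Wnt7a, was at 209, 199, 200 and 204 CPM in dcKO vehicle and at 179, 146, 170 and 148 CPM in WT vehicle. These groups did not overlap, yet the difference of 0.34 on the log2 scale had an adjusted p of 0.370, and of 0.0601 without the library labelled replicate 2. In untreated samples Wnt7b overlapped (119, 121, 178 and 104 CPM in C against 141, 165 and 159 CPM in M). Wnt5a (chr14:28504750-28527448), which signals mostly without β-catenin, lay between 23.4 and 37.0 CPM in all untreated and vehicle libraries, and its log2 fold change was -0.02 for M against C (-0.15 without M replicate 2).

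The rarest hem genes overlapped between genotypes. Wnt8b (chr19:44493472-44514273) had 1.39, 4.34, 2.38 and 1.36 CPM in C and 4.45, 2.80 and 2.75 CPM in M, and WT and dcKO vehicle libraries covered 1.65 to 4.45 and 2.18 to 4.54 CPM. Replicate 2 was the highest in each of these 4 groups. Lmx1a (chr1:167689237-167848741), a factor that specifies roof plate and hem, covered 1.14 to 2.53 CPM in C and 1.85 to 2.39 CPM in M, with a log2 fold change of 0.41 and of 0.33 in vehicle samples (0.50 and 0.44 without the libraries with control-level Smarcc1). Rspo1 (chr4:124986430-125009099) covered 0.925 to 2.70 CPM in C and 1.58 to 2.18 CPM in M. Wnt3a (chr11:59248033-59290752), the ligand most specific to the hem, covered 0.391 to 1.24 CPM in C and 0.364 to 0.839 CPM in M. None of these 4 genes passed in either experiment; the SE of the untreated log2 fold change was 0.41 for Wnt8b, 0.29 for Lmx1a, 0.33 for Rspo1 and 0.49 for Wnt3a, so small differences could not be seen.

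The difference in genotype effect between the untreated and vehicle experiments was tested with an interaction term, which passed for 0% of 15999 genes and for 0 of the 10 (87 genes at an unadjusted p under 0.05), and for 0 of the 10 without M replicate 2. It was -0.08 on the log2 scale for Wnt2b (SE 0.403). With same-numbered libraries of both experiments as 1 block, an alternative chosen after the data were seen, it was -0.04 for Wnt2b (SE 0.120) and -0.04 for Rspo2 (SE 0.156), and 0 genes passed (162 at an unadjusted p under 0.05).

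**Figure D3:**
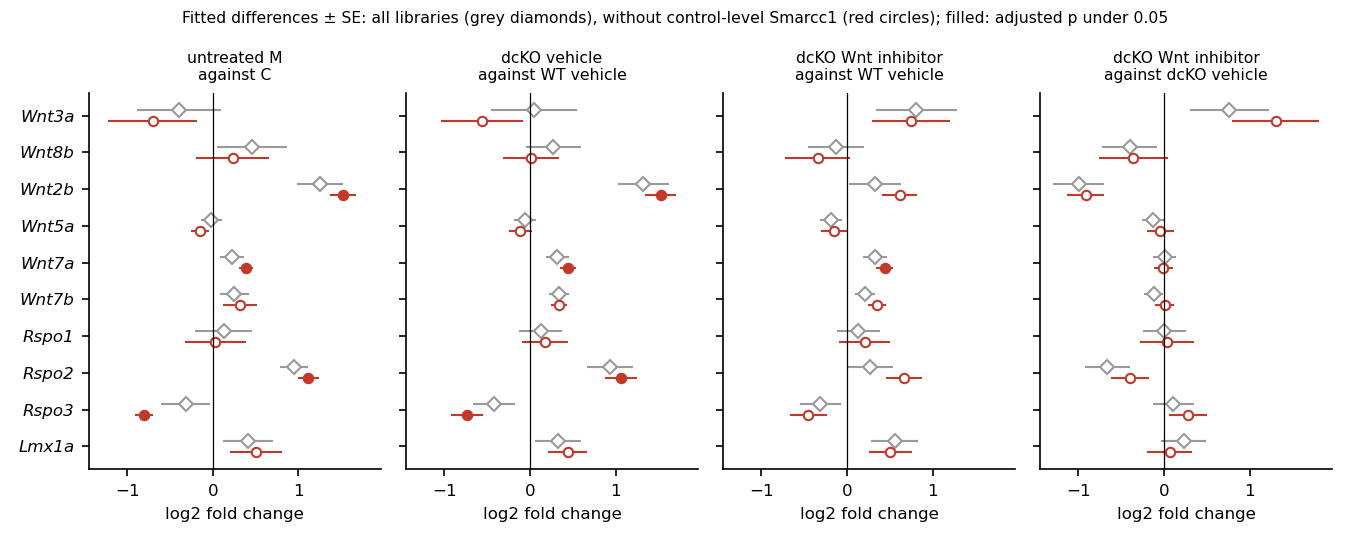
Log2 fold change with its SE for the 10 genes in 4 comparisons, with all libraries (grey diamonds) and without the libraries with control-level Smarcc1 (red circles). Filled symbols have an adjusted p under 0.05: they are Wnt2b, Rspo2, Wnt7a and Rspo3 in both genotype comparisons and Wnt7a for inhibitor against WT vehicle, in each case without those libraries.

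The next comparison asks what the Wnt inhibitor did to these genes in dcKO cortex. It shares its dcKO vehicle libraries with the genotype comparison above, so the values are set side by side only. Wnt2b had 2.57, 4.99, 4.96 and 7.10 CPM under the inhibitor. Replicates 1 to 3 were below every dcKO vehicle library, and replicate 4 lay above the vehicle library labelled replicate 2 alone. The log2 fold change against dcKO vehicle was -0.996 (SE 0.295, adjusted p = 0.187), and -0.91 (SE 0.215, adjusted p = 0.0743) without libraries with control-level Smarcc1. Wnt2b therefore did not pass either way, and no other gene of the 10 did, where 0.055% of genes passed with all libraries and 1.02% without those. At an unadjusted p under 0.05 there were 2 members either way. Over all genes there were 2594 of 16372 with all libraries and 3017 of 16815 without those with control-level Smarcc1. DESeq2 with all libraries called 1 member, Wnt2b, and 339 genes in all.

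Rspo2 was at 12.7, 9.82, 27.9 and 15.9 CPM under the inhibitor, a spread wider than in any other group. The highest value belonged to replicate 3, the library with the least Smarcc1 of its group (52.5% of the WT vehicle mean). Its log2 fold change against dcKO vehicle was -0.66 (SE 0.263, adjusted p = 0.26), and -0.40 (adjusted p = 0.388) without libraries with control-level Smarcc1. Wnt7a was at 46.6, 46.5, 58.3 and 51.3 CPM, and Rspo3 at 15.01, 17.1, 12.8 and 13.8 CPM. Both groups of values overlapped those of dcKO vehicle. Wnt3a was at 1.08, 0.574, 0.875 and 0.638 CPM against 0.135 to 0.935 CPM in dcKO vehicle, with a log2 fold change from few reads of 0.76, and of 1.30 without libraries with control-level Smarcc1 (adjusted p = 0.208).

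Against WT vehicle, Wnt7a under the inhibitor did not overlap and was higher by 0.33 on the log2 scale (adjusted p = 0.209). Without the libraries with control-level Smarcc1 it was higher by 0.44 (SE 0.103, adjusted p = 0.0317). These were inhibitor replicates 1 and 2 and, in the shared fit, dcKO vehicle replicate 2. With all libraries none of the 10 passed (1 at an unadjusted p under 0.05, and 0 called by DESeq2), where 0.0977% of genes did. Wnt7a alone passed without the libraries with control-level Smarcc1, where 7.38% of genes did. With all libraries, 3236 of 16372 genes had an unadjusted p under 0.05, and DESeq2 called 770 genes. Without the libraries with control-level Smarcc1, Wnt2b and Rspo2 stood 0.62 (adjusted p = 0.1) and 0.67 (adjusted p = 0.0813) above WT vehicle. The summed choroid plexus markers were high in inhibitor replicates 1 to 3, mostly through Ttr (803, 147 and 448 CPM, against 4.03 CPM in replicate 4). Otx2, on the same list, was at 7.89, 5.17, 6.12 and 5.38 CPM in replicates 1 to 4, against 1.65 to 2.36 CPM in WT vehicle. It was the 1 of 9 listed markers tested that passed against WT vehicle with all libraries (log2 fold change 1.64, adjusted p = 0.0464). The part of choroid plexus markers in these differences was not tested.

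The remaining genes of the pathway were taken as lists. Of the secreted antagonists, 1 of 10 tested passed for inhibitor against dcKO vehicle with all libraries, where 0.055% of genes did. This was Sfrp5, a decoy receptor for Wnt, at 2.51, 2.24, 1.51 and 1.95 CPM under the inhibitor and 0.45, 0.45, 0.61 and 0.37 CPM in dcKO vehicle, a log2 fold change of 2.1 (SE 0.254, adjusted p = 0.0194). These 2 groups, with 8 to 49 reads per library, did not overlap. WT vehicle libraries had 0.97, 1.28, 1.16 and 1.59 CPM, each above every dcKO vehicle library. Against WT vehicle Sfrp5 did not pass with all libraries. In the genotype comparisons no gene of the lists passed with all libraries. The counts that follow are without the libraries with control-level Smarcc1, where 12.4% of all genes passed for M against C, 5.82% for dcKO vehicle against WT vehicle and 7.38% for inhibitor against WT vehicle. Counts in short lists near these shares are no result about the list.

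Antagonists changed in both directions: 4 rose and 1 fell for M against C, and 4 rose and 3 fell for dcKO vehicle against WT vehicle, of 10 tested. Sfrp1 rose by 0.86 and 0.85 on the log2 scale, and Dkk1, which blocks the LRP co-receptor, by 3.65 and 2.46, although it stayed at or below 1.62 CPM. Dkk3 fell by 0.92 and 0.85, and Wif1 had a log2 fold change of 1.62 (adjusted p = 0.0148) in vehicle samples. Dkk2 had 1.03 (adjusted p = 0.00855) in untreated samples. The median over the list was 0.26 and 0.14, with medians over all genes near 0. Sfrp1 and Dkk1 in the libraries labelled replicate 2 of M and dcKO vehicle (188 and 176 CPM, and 1.18 and 0.58 CPM) were above every control.

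Of the 13 targets and TCF factors, 4 rose and 1 fell for M against C, and 3 rose for dcKO vehicle against WT vehicle. Axin2, a feedback inhibitor that is the usual readout of canonical signalling, rose by 0.54 (adjusted p = 0.00607) and 0.62 (adjusted p = 0.0107), from 26.97 to 33.6 CPM in C to 47.5 and 40.7 CPM in M replicates 3 and 4. Ccnd1, which encodes cyclin D1, rose by 0.60 and 0.65. Tcf7l1, a TCF factor that mostly represses, rose by 0.75 in vehicle samples, and Tcf7l2, which is also a marker of the thalamus, by 0.52 in untreated samples. Nkd2, a negative regulator, fell by 0.62 in untreated samples. The list's median was -0.01 and -0.09, and 6 of the 13 genes had a value above 0 in each comparison.

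Of 22 receptors, 3 rose and 1 fell for M against C and 2 rose for dcKO vehicle against WT vehicle. Fzd5 (1.36 and 1.52) and Fzd1 (0.48 and 0.53) passed in both, while Fzd7 (0.37) and Rnf43 (-1.60), a ubiquitin ligase that removes Frizzled receptors, passed in untreated samples. Wls, which carries Wnt ligands to the cell surface, rose by 0.67 in untreated samples. Of 4 other ligands with enough reads, Wnt5b fell by 1.36 and by 1.12, and Wnt3 rose by 0.74 in untreated samples. Of 10 other hem and roof plate genes, Zic2 (0.69), Id3 (0.60) and Bmp2 (0.88) rose in untreated samples and none passed in vehicle samples. At the same time 5 of 9 cortical markers fell in each comparison, and 1 rose in untreated samples. Of 7 Cajal-Retzius markers, Ebf3 rose by 1.69 and 1.66, and Nhlh2 fell by 0.40 in untreated samples. Of the diencephalon markers 3 of 6 rose in untreated and 0 of 7 passed in vehicle samples. Of 9 meninges markers 1 fell in untreated and none passed in vehicle samples, with a median of -0.73 and -0.78 and no value above 0. Of 9 choroid plexus markers none passed, with a median of -0.88 and -0.82. Of 5 endothelium markers 1 fell in each, and of 6 microglia markers 1 rose in untreated samples. The part of these marker changes in the results was not tested.

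For inhibitor against WT vehicle, where 7.38% of all genes passed, 3 of 22 receptors rose and 1 fell, led by Fzd5 at 1.74. Fzd1 and Fzd2 rose by 0.56 and 0.58, and Fzd3 fell by 1.30. Of 10 antagonists 4 rose (Sfrp1 by 0.90, Dkk1 by 3.07, Dkk2 by 1.08, Sfrp2 by 0.52) and 1 fell, and of 13 targets Tcf7l1 (0.84) and Ccnd1 (0.40) rose and Nkd2 fell by 0.71. These values rest on inhibitor replicates 3 and 4.

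The genes whose levels over the 19 RNA libraries were most like those of each member were found by Pearson's r of log2 CPM centred within each experiment, as a description. The libraries share genotype groups and possibly embryos. Wnt2b was most like Dusp18 (r = 0.962), Ccnd1 (0.954) and Axin2 (0.948), so that a pair of canonical target genes were among its 3 nearest. Rspo2 was most like Sertm1 (0.967), Adamts1 (0.956) and Rgs9bp (0.953), and Rspo3 most like Slc30a10 (0.975), Fam107b (0.952) and Frmd4b (0.952). For Wnt7a the nearest were Rfx4 (0.942), Ckap4 (0.938) and Col27a1 (0.918). Wnt7b was nearest to Usb1 (0.927), Lmo1 and Mdk (both 0.893), and Wnt5a to Vps36 (0.886), Tgfb2 (0.877) and Ecm2 (0.838). Lower values were found for Lmx1a (B930082K07Rik, 0.839), Wnt8b (Nat8f4, 0.768) and Rspo1 (Vps33a, 0.701), which had few reads. Between members, r was 0.823 for Wnt2b and Rspo2 and -0.880 for Wnt7a and Rspo3.

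H3K27me3 peaks lay near the starts of most of these genes. A peak at a start here means one within 2000 bp of the gene start in the GENCODE annotation. A peak within 2000 bp of the start was present in at least 6 of the 8 libraries for 9 of 10 genes, where 10.3% of 21938 protein-coding genes had one. The marked genes included Rspo3 and Wnt7b, which are among the most expressed of the group in whole cortex. Wnt3a and Rspo1 had a peak in 8 libraries, and Wnt2b, Wnt5a, Wnt7b, Rspo2 and Lmx1a in 7. Wnt8b and Rspo3 had one in 6, and Wnt7a in 3 (C replicate 1 and 2 K libraries). The bases shared by all libraries with a peak reached across the GENCODE start only at Wnt2b (-355 to 75 bp). The RefSeq promoter window of Wnt2b has another start, and from that start its shared bases lie wholly upstream. At Wnt8b the shared bases lay at -1861 to -1535 bp and at Rspo2 at 1435 to 1661 bp. Wnt7b, Rspo3 and Lmx1a had no shared base. These libraries were of unequal quality: the share of tags left after removal of duplicates ran from 12.3 to 66.5%, and the share of genes with a peak from 4.91 to 32.7%.

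The marked stretches differed in length. At Wnt8b the longest peak spanned 29361 bp, and peaks covered the whole gene of 20802 bp in C replicates 2 and 4 and K replicate 3. These 3 libraries kept the most tags (61.5, 62.2 and 66.5%), and the part of this in the peak lengths was not tested. Lmx1a had up to 15527 bp, Wnt3a 12450 bp, Wnt5a 11449 bp and Rspo1 10509 bp. Against a median of 1514 bp over 8035 genes with a peak at the start, 98.3% of these genes had a shorter longest peak than Wnt8b and 93.6% a shorter one than Wnt2b (9643 bp). Rspo3 (3152 bp), Rspo2 (2900 bp) and Wnt7a (2662 bp) had the shortest, still longer than that of 66.6 to 71.2% of these genes.

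**Figure D4:**
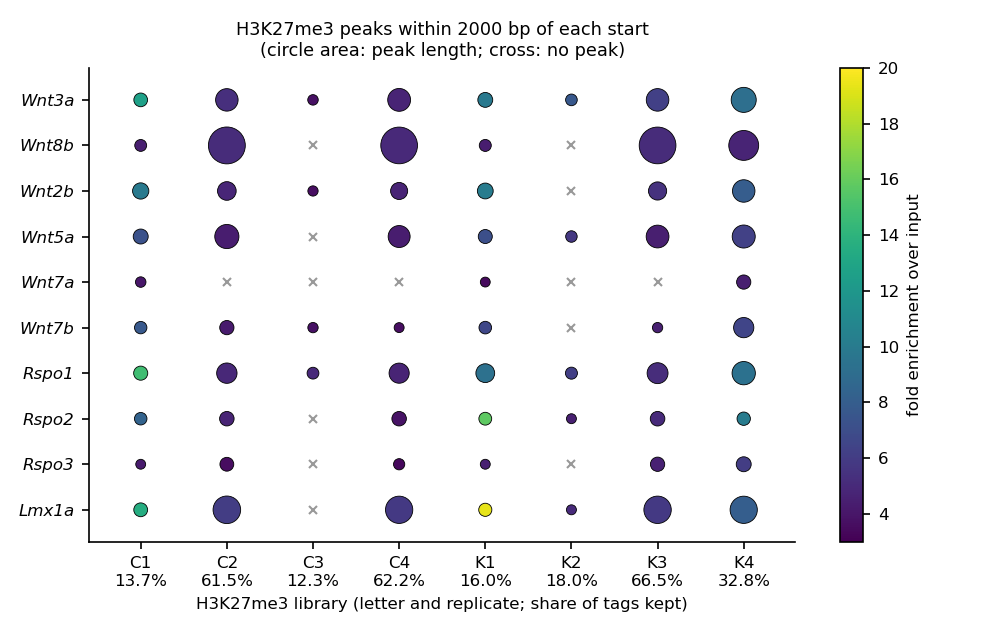
H3K27me3 peaks within 2000 bp of the start of each gene in the 4 C and 4 K libraries, with circle area for the length of the longest peak and colour for the fold enrichment; a cross means no peak. Wnt3a and Rspo1 have a peak in all 8 libraries and Wnt7a in 3, and the number under each library is the percentage of tags kept.

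The last comparison asks whether the mark differed between C and K at these genes. Fold enrichment over input at the Rspo2 start was 8.33, 4.71 and 3.82 in C replicates 1, 2 and 4, with no peak in replicate 3, and 15.8, 4.46, 5.05 and 10.05 in K replicates 1 to 4. The groups overlapped, and the difference of 1.15 in log2 fold enrichment (SE 0.695) was the largest at a start. Without C replicate 3, which was set to 0 there, it was 0.54 at Rspo2 and 0.16 at Wnt5a. With the stricter q limit Rspo3 had the largest difference (1.22). At the other starts the difference ran from -0.31 (Wnt7b) to 0.76 (Wnt5a), with 0.34 (SE 0.644) at Wnt2b and 0.37 (SE 0.588) at Wnt3a. At Wnt7b K replicate 2 had no peak and was set to 0. Without that library the Wnt7b difference was 0.326, and with the stricter q limit it was 0.640. None of 19 regions at the 10 genes passed, nor did any at an unadjusted p under 0.05, and limma called 0% of 22220 regions, with 49 at an unadjusted p under 0.05. With these SEs, differences of the size seen here were not detectable at a single region. The values for RNA and mark at Rspo2 stand side by side only, since they come from different samples.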

How the data were processed

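Reads were aligned with STAR and counted per gene with featureCounts by the authors, who deposited whole-number counts for each RNA library. The gene annotation used for counting was not given in the sources used here, and the TruSeq kit named in the labels does not settle how strand was treated, so overlapping genes may share reads. For H3K27me3, the authors called peaks against input per library with MACS2 2.1.0.20140616 on mm10 as broad regions (q under 0.1 in the file headers). The deposited columns used were fold enrichment, a ratio over the local background, and pileup, a coverage signal. The deposited −log10 p-value and −log10 q-value columns were used only as a stricter limit. Input libraries were used only through these calls.

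The members and lists were chosen with earlier results of these data known. Groups followed the titles and treatment labels. Counts were scaled by TMM, filtered by edgeR's filterByExpr and tested with glmQLFit and glmQLFTest (edgeR 4.0.16, R 4.3.3). M was tested against C, and the 3 treated groups shared 1 fit with 3 contrasts. Both experiments were combined on 15999 genes for the interaction. Peaks found in at least 2 libraries were merged into regions, log2 of the largest fold enrichment per library (0 where no peak was listed) was tested with limma 3.58.1, and genes were placed with GENCODE M21. CPM used TMM-scaled library sizes, and levels between genes were divided by exon length. All p-values are two-sided. An adjusted p under 0.05 was called. The named genes were all 10 members, list genes that passed in a comparison (at most 4 per list and comparison, by p), and for each member with a mean of at least 1 CPM the 3 genes with the highest r.

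The self-test on simulated data preceded each test. Alternatives were DESeq2 size factors, no filter, DESeq2 1.42.0, the replicate number as a block, fits of 2 groups only and leaving out each library. The exclusion of libraries with control-level Smarcc1, a block for libraries that kept many or few tags, the shared block across experiments and the summing of same-numbered libraries were added after the data were seen. Depth, 11946658 to 28391046 counts per RNA library, limits the rare genes, and counting error alone is wide for Wnt3a (median of 10 reads).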

Additional observations from a re-analysis of the deposited data

Results flagged for a closer look

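In groups of 4 libraries, 8 of 60 sets of values held a library that stood apart by Dixon's 95% limit for 4 values. Its distance from its nearest neighbour took up more of the group's range than this limit. For continuous normal values chance gives about 1 in 20. In H3K27me3 a start without a peak was entered as 0, so that rate does not hold there and the count is description only. In RNA, dcKO vehicle replicate 2 had the highest Rspo3 of its group (21.6 CPM) and the lowest Wnt2b (5.26 CPM). It is the library with 91.1% of control Smarcc1. WT vehicle replicate 2 had the highest Wnt8b (4.45 CPM).

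In H3K27me3, C replicate 1 stood above the other C libraries in fold enrichment at the starts of Rspo1 (14.8), Wnt7b (7.67) and Wnt7a (4.06, the only C library with a peak there). Wnt8b had no peak at its start (0 in place of a fold enrichment) in C replicate 3 and in K replicate 2. C replicate 1 listed 28659 peaks, against 9993 in C replicate 3 and 9381 in K replicate 2. Causes were not tested.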

How the results depend on the processing

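Of 689 recomputed differences of single members, 632 kept their direction and side of the threshold, 23 became significant and 34 changed sign. The number of members called moved from 0 as follows. For M against C it was 1 with no filter, 2 with DESeq2, 0 to 4 when each library was left out (4 without M replicate 2) and 4 without the libraries with control-level Smarcc1. For dcKO vehicle against WT vehicle it was 1 with DESeq2, 0 to 2 when each library was left out (2 without dcKO vehicle replicate 2), 4 without control-level Smarcc1 and 1 with same-numbered libraries summed. For inhibitor against dcKO vehicle it was 1 with DESeq2 and 0 to 1 when each library was left out (1 without dcKO vehicle replicate 2). For inhibitor against WT vehicle it was 0 to 1 (1 without inhibitor replicate 2) and 1 without control-level Smarcc1.

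Whether replicate numbers pair the samples within an experiment was not settled by 3 or 4 same-number pairs per comparison. Same-number r was -0.546 to 0.000556 for M and C, with a median of -0.265 against 0.210 for other numbers. It was -0.109 to 0.603 for dcKO and WT vehicle, -0.141 to 0.443 for inhibitor and dcKO vehicle, and -0.390 to 0.598 for inhibitor and WT vehicle. The medians in these last 3 were 0.0782, 0.239 and 0.169, against -0.121, -0.0782 and -0.0958 for other numbers. With the replicate block 0 members were called in each comparison. Genes called in all were 1, 1, 9 and 16 in the 4 comparisons in the order above, 154, 0, 20 and 58 with no filter, 555, 120, 339 and 770 with DESeq2, 0, 5, 7 and 189 with the replicate block, 0, 7 and 8 in the treated comparisons with 2 groups only, and 79 for dcKO vehicle against WT vehicle with libraries summed. DESeq2 size factors gave 0 for dcKO vehicle against WT vehicle. Leaving out libraries gave 0 to 1994 (1994 without M replicate 2), 0 to 562 and 0 to 420 (562 and 180 without dcKO vehicle replicate 2, 420 without inhibitor replicate 2) and 0 to 1453 (1453 without inhibitor replicate 2, 187 without WT vehicle replicate 1). For H3K27me3, 0 regions of members were called under each alternative run.

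No difference that changed sign had passed the threshold. For inhibitor against dcKO vehicle, Rspo1 was -0.00168 (DESeq2 size factors), -0.00832 (no filter), -0.000284 (DESeq2) and -0.00540 (2 groups only), Wnt7a -0.00560 (no filter), -0.00254 (2 groups only) and -0.00698 (without control-level Smarcc1) and Wnt7b 0.00665 (without control-level Smarcc1). Wnt3a for dcKO vehicle against WT vehicle was -0.556 (without control-level Smarcc1) and -0.267 (summed). Fold enrichment at Wnt7b was 0.640 with a stricter q, and pileup at Rspo1 was -0.137. Over libraries left out, M against C ran from -0.701 to 0.0594 (Wnt3a), -0.149 to 0.0872 (Wnt5a) and -0.0849 to 0.443 (Rspo1). For dcKO vehicle against WT vehicle the range was -0.122 to 0.0320 (Wnt5a) and -0.555 to 0.388 (Wnt3a), and for inhibitor against WT vehicle -0.266 to 0.301 (Wnt8b) and -0.0889 to 0.454 (Rspo2). Inhibitor against dcKO vehicle ran from -0.0912 to 0.116 (Rspo1), -0.0143 to 0.42 (Rspo3) and -0.122 to 0.0762 (Wnt7a). K against C ran from -0.142 to 0.909 (Rspo3), -0.211 to 0.509 (Lmx1a) and -0.581 to 0.326 (Wnt7b). The cause was not tested.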

Other observations

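H3K27me3 at the starts of the other pathway genes differed between lists. A peak in at least 6 of 8 libraries was present for 13 of 14 other ligands and for 11 of 14 other hem and roof plate genes, against 11 of 22 receptors, 6 of 11 antagonists and 7 of 13 targets and TCF factors. Over all protein-coding genes the share was 10.3%. Lists were not tested against each other.

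Meninges markers summed to 76.4 to 85.5 CPM in replicates 2 and 4 of C and WT vehicle and to 77.2 CPM in inhibitor replicate 4. With same-numbered libraries summed across the untreated and vehicle experiments and no libraries with control-level Smarcc1, the log2 fold change was 1.51 for Wnt2b, 1.07 for Rspo2, 0.42 for Wnt7a and -0.80 for Rspo3.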
